A study of Mus musculus with 31 samples.

Results

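The T helper 1 (Th1) program was followed through Tbx21, Stat4, Il12rb1, Il12rb2, Ifng, Eomes and Hopx, which are 7 of the 31053 gene symbols in each of 3 count tables. They were chosen by name and not by their values, and were read out in T helper 17 (Th17) cells, the CD4 T lineage defined by interleukin 17. In 2 experiments, naive 2D2+ T cells, whose transgenic receptor recognises a myelin protein, were made into homeostatic Th17 cells (Th17Hom) in culture and transferred into Rag1 KO mice, which lack lymphocytes with rearranged receptors. At the peak of experimental autoimmune encephalomyelitis (EAE), a model of multiple sclerosis, 2D2+ cells were sorted from the brain and spinal cord, with 2000 cells per library. The donors were Cyp11a1 cKO (n = 6) or Cyp11a1 WT (n = 4) mice in the first experiment and GR cKO (n = 4) or GR WT (n = 5) mice in the other, all labelled C57/B6. Cyp11a1 encodes the first enzyme of steroid synthesis from cholesterol, and GR is the glucocorticoid receptor, the product of Nr3c1. The donor design names conditional knockouts while the sample labels say KO, and the Cre driver and the ages are not given in the sources used here. For the in vitro experiment, Th17 cells of the inflammatory kind (Th17Inf) of WT C57/B6 mice, from spleen and draining lymph node, were treated for 2 days with TGF-β1 + Dex, Dex or TGF-β1, or left as controls (n = 3 each). Dex is dexamethasone, a synthetic glucocorticoid. Whether each library is a separate animal or culture is not given in the sources used here, so p-values measure the spread between these libraries, which may be technical.

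In the Th1 pathway, interleukin 12 (IL-12) binds a receptor of a constitutive chain, Il12rb1, and an inducible chain, Il12rb2, and activates the transcription factor Stat4. Stat4 and T-bet, the product of Tbx21, drive transcription of Ifng, which encodes the macrophage-activating cytokine interferon-γ (IFN-γ). Il12rb1 also forms the IL-23 receptor together with Il23r, so that Th17 cells use this chain as well. Eomes is a T-box factor related to T-bet and prominent in CD8 T and natural killer (NK) cells, and Hopx is a small homeodomain protein expressed in Th1 effector cells. Th17 cells in inflamed tissue can acquire part of this program.

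The sequences below are the 250 bases before the annotated start of Ifng, Il12rb2 and Stat4, from RefSeq on GRCm38.p6, printed 5′ to 3′ on the strand of the gene. They are shown because these genes stand at the output, receptor and signalling steps of the pathway. Capitals mark the matches to a search, on both strands, for the STAT motif TTCNNNGAA, the T-box motif TCACACC, the glucocorticoid receptor motif ACANNNTGT and the SMAD motif CAGAC. SMAD proteins are the transcription factors downstream of TGF-β1.
Ifng, chr10:118440796-118441045, + strand: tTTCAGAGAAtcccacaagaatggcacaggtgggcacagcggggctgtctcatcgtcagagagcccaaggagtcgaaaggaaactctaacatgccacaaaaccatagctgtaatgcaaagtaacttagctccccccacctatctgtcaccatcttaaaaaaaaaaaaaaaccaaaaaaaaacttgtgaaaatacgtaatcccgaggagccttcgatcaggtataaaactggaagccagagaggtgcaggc
Il12rb2, chr6:67376189-67376438, - strand: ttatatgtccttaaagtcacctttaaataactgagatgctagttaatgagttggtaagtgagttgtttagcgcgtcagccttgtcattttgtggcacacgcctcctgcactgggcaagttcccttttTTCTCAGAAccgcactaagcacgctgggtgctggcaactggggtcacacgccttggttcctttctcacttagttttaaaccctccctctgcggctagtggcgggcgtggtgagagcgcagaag
Stat4, chr1:51986898-51987147, + strand: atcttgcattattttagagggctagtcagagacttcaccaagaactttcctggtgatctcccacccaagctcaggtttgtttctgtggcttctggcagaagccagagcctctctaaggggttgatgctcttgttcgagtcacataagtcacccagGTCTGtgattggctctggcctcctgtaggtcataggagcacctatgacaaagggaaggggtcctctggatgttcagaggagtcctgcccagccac
The Ifng and Il12rb2 windows each hold 1 STAT match, beginning 249 and 123 bases before the start, and the Stat4 window holds 1 SMAD match on the reverse strand, 95 bases before the start. The STAT motif occurs in 7.02% of 32851 such windows, the T-box motif in 3.33%, the glucocorticoid receptor motif in 5.84% and the SMAD motif in 42.2%. None of the 4 motifs was found in the windows before the Tbx21 and Eomes starts. The window before the Hopx start, not printed, held 1 glucocorticoid receptor match at 222 bases and 1 SMAD match at 123 bases. A farther RefSeq window of Stat4, 21092 bases from the annotated start, held 2 SMAD matches, and a farther window of Hopx held none. RefSeq windows were matched for 6 of the members, and Il12rb1 is only named. A match is a description of letters and not a binding site.

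The genes lie on separate chromosomes in GENCODE M21 on GRCm38: Tbx21 at chr11:97098071-97115331, Stat4 at chr1:51987148-52107189, Il12rb1 at chr8:70808449-70821424, Il12rb2 at chr6:67291318-67376188, Ifng at chr10:118441046-118445892, Eomes at chr9:118478212-118486132 and Hopx at chr5:77086988-77115121. The counts are of whole genes from a protocol that keeps no strand. Il12rb2 shares 1519 bases of exon with Serbp1, an RNA-binding protein gene on the opposite strand, and Hopx shares 412 bases with the antisense gene Hopxos. Ifng and Stat4 share 336 and 1033 bases of exon with the same-strand predicted genes Gm49751 and Gm28177. Reads from these stretches cannot be told apart by strand, so the Serbp1 level is given beside Il12rb2. Total counts per library were 4322688 to 5118543 for Cyp11a1, 3552871 to 5623305 for GR and 2769203 to 4291149 for the culture. A level of 3 counts, taken as the floor, corresponded to 0.522 to 0.795, 0.495 to 1.05 and 0.632 to 1.13 CPM (counts scaled to library depth) in those experiments. A group of 11 or 12 repeat-like predicted genes took 9.09% to 54.6% of the counts of a library.

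The targeted genes were read first. Nr3c1 was 8.45, 6.76, 10.2 and 8.25 CPM in the GR cKO libraries and 18.9, 14.8, 12.98, 13.05 and 15.1 CPM in the GR WT libraries. The groups did not overlap, with a log2 fold change of -0.83 ± 0.18 (SE), but the edgeR quasi-likelihood test with Benjamini-Hochberg adjustment gave an adjusted p of 0.58. Cyp11a1 was at 0 counts in all 4 Cyp11a1 WT libraries and in 5 of the 6 Cyp11a1 cKO libraries, with 4 counts in cKO replicate 2, so its level could not check those labels. The cells carried the Th17 cytokine transcript Il17a, which averaged 42.1 ± 18.5 CPM in Cyp11a1 cKO and 58.8 ± 30.9 CPM in Cyp11a1 WT (SD), and 11.1 ± 3.54 CPM in GR cKO and 10.4 ± 5.37 CPM in GR WT. In culture, Il17a averaged 30.9 ± 7.19 CPM with TGF-β1 + Dex, 20.4 ± 11.1 CPM with Dex, 46.1 ± 25.8 CPM with TGF-β1 and 19.2 ± 5.83 CPM in control.

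Counted per kilobase of exon, so that genes can be set beside each other, the order of the members differed between the sorted cells and the culture, whose tables were normalized separately and were not tested against each other. In Cyp11a1 cKO cells from the central nervous system (CNS), Ifng led with a mean of 40.9 CPM per kb, followed by Tbx21 at 13.9, Stat4 at 12.7, Il12rb2 at 9.80 and Il12rb1 at 7.78. In Cyp11a1 WT cells the same levels were 29.9 for Ifng, 9.69 for Tbx21, 14.3 for Stat4, 4.93 for Il12rb2 and 10.02 CPM per kb for Il12rb1. Cultured control cells led instead with the receptor chains, Il12rb2 at 44.5 and Il12rb1 at 32.3 CPM per kb, while Stat4 was 9.57, Tbx21 7.01 and Ifng 3.71 CPM per kb. Hopx and Eomes were the lowest members in the sorted cells, with 1.32 and 0.027 CPM per kb in Cyp11a1 cKO.

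The first comparison asked whether loss of Cyp11a1 in transferred Th17 cells changed the program at the peak of disease. No member passed the test, of 6 tested, in a comparison that called 0.178% of the 10125 tested genes, 0.138% higher and 0.0395% lower. The largest difference was in Il12rb2, the inducible receptor chain, with a median of 34.8 CPM in cKO libraries and 16.4 CPM in WT libraries. Il12rb1, the constitutive chain, lay on the other side, lower in every cKO library than in any WT library by a narrow margin. The median log2 fold change was 0.34 over the 6 members and 0.0027 over all tested genes. Because each library pools the RNA of many sorted cells, fewer cells with a transcript and less transcript per cell cannot be told apart here or below.

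Il12rb2 had a lowest level of 29.9, a median of 34.8 and a highest level of 54.6 CPM in the 6 Cyp11a1 cKO libraries, against 12.1, 15.3, 29.9 and 17.5 CPM in the 4 WT libraries. The lowest cKO library (29.89 CPM) fell just under WT replicate 3 (29.92 CPM), and every other cKO library lay above every WT library. The log2 fold change was 0.98 ± 0.23 (unadjusted p of 0.00104 and adjusted p of 0.156 by edgeR). The call depended on the tool and on 1 library: DESeq2 gave an adjusted p of 0.0105, and edgeR without WT replicate 3 gave a log2 fold change of 1.32 and an adjusted p of 0.0246. Serbp1, the overlapping gene, averaged 267 ± 29.8 CPM in cKO and 234 ± 36.3 CPM in WT, a log2 fold change of 0.19 (adjusted p = 0.724).

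Il12rb1 had a lowest level of 28.0, a median of 31.1 and a highest level of 39.4 CPM in the cKO libraries, against 44.0, 39.9, 40.0 and 40.5 CPM in the WT libraries. The groups did not overlap, but by a narrow margin: cKO replicate 6 was at 39.36 CPM and WT replicate 2 at 39.89 CPM. The share of all tested genes that separate the groups was not counted. The WT libraries were close together apart from replicate 1. The log2 fold change was -0.36 ± 0.11 and the edgeR adjusted p was 0.332. As a description, the level of Il12rb2 per kb divided by that of Il12rb1 ranged from 0.892 to 2.06 in the cKO libraries and from 0.297 to 0.809 in the WT libraries. All 6 cKO ratios were therefore above all 4 WT ratios, with means of 1.295 ± 0.42 in cKO and 0.497 ± 0.22 in WT. This ratio was computed after its 2 genes had been seen, and carries no test.

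**Figure D1:**
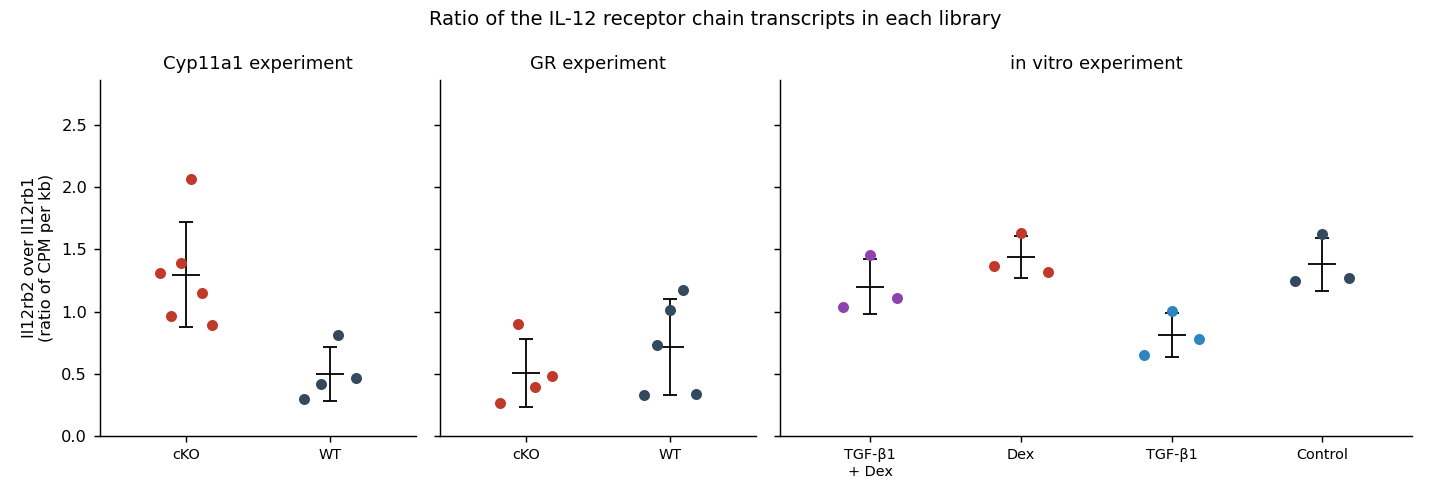
Level of Il12rb2 per kb of exon divided by that of Il12rb1 in every library, for the Cyp11a1, GR and in vitro experiments. Points are libraries, and the bar and whiskers are mean and SD. The Cyp11a1 cKO libraries (0.892 to 2.06) lie above the WT libraries (0.297 to 0.809), GR cKO and GR WT overlap, and TGF-β1 alone (0.651 to 1.00) lies lowest in culture.

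The transcription factors differed less than Il12rb2. Tbx21, the gene of T-bet, had a lowest level of 22.7, a median of 36.0 and a highest level of 43.0 CPM in the cKO libraries, against 21.2, 26.5, 34.4 and 14.3 CPM in the WT libraries. The ranges overlapped, and the log2 fold change was 0.50 ± 0.22 (edgeR adjusted p = 0.582). Stat4, the transducer of the IL-12 signal, had 41.7, 49.3 and 54.4 CPM as lowest, median and highest level in cKO, against 50.2, 53.8, 59.7 and 57.8 CPM in WT. Its log2 fold change was -0.17 ± 0.09 (edgeR adjusted p = 0.723).

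Ifng, the cytokine at the end of the pathway, had a lowest level of 39.8, a median of 48.7 and a highest level of 77.3 CPM in the cKO libraries, against 19.9, 48.2, 67.0 and 19.6 CPM in the WT libraries. The WT libraries split, with replicates 2 and 3 inside the cKO range and replicates 1 and 4 below it. The log2 fold change was 0.44 ± 0.35 (edgeR adjusted p = 0.827), and with the summed NK and CD8 T cell markers as a covariate it was -0.05. Hopx lay between 1.36 and 2.80 CPM in cKO and between 0 and 2.43 CPM in WT, with WT replicate 4 at 0 counts (log2 fold change 0.24 ± 0.47, edgeR adjusted p = 0.941). Eomes had 3 counts over the 6 cKO libraries and 6 counts over the 4 WT libraries, too few to be tested.

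Sums of NK and CD8 T cell markers and of myeloid markers had higher medians in cKO, but the genes of the former list did not all move together. The summed NK and CD8 T cell markers ranged from 229 to 541 CPM in cKO and from 86.4 to 370 CPM in WT, with WT replicate 3 the highest of its group, as it was for Ifng, Tbx21 and Il12rb2. Of that list, 0 of 7 tested genes passed the test. Most of the sum was Gzma, a granzyme, at 238 ± 104 CPM in cKO and 94.4 ± 95.6 CPM in WT. The NK receptor genes Klrd1, Klrc1 and Klrk1 averaged 46.5, 19.0 and 18.3 CPM in cKO and 27.7, 10.9 and 10.85 CPM in WT, and Cd8b1, a CD8 chain, averaged 18.4 CPM in cKO and 19.3 CPM in WT. The NK receptor gene Ncr1 averaged 0.22 CPM in cKO and 0.14 CPM in WT, the other CD8 chain Cd8a 0.90 CPM in cKO and 0.78 CPM in WT, Klrb1c 1.68 CPM in cKO and 1.89 CPM in WT, and Prf1, the perforin gene, 1.09 CPM in cKO and 0.76 CPM in WT. The summed myeloid and microglia markers were 729 to 1147 CPM in cKO and 540 to 621 CPM in WT, without overlap. Of 19 tested genes of that list, 18 had a positive log2 fold change, with a median of 0.715 over the list. By edgeR 3 of them were called higher, where 0.138% of all tested genes were. T cell markers summed to 33930 to 38830 CPM in cKO and to 33900 to 39520 CPM in WT. Most of each sum was the T cell receptor genes Trbc2 and Trac, at 29970 and 5797 CPM in WT replicate 1, the library with 39520 CPM. Which cells made these transcripts was not tested, so the covariate fits cannot tell other cell types from the sorted cells. The part of these transcripts in the Th1 gene values was not tested beyond those fits.

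The genes around the 7 members gave the same count. In the Cyp11a1 comparison, 0 of 10 tested Th1 receptors and kinases, 0 of 8 transcription factors and cofactors, 0 of 13 effector and homing genes, 0 of 15 IFN-γ response genes and 0 of 9 other helper fate regulators passed the edgeR test. The median log2 fold change was 0.37 over the effector and homing genes and 0.07 over the IFN-γ response genes, beside 0.0027 over all tested genes.

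**Figure D2:**
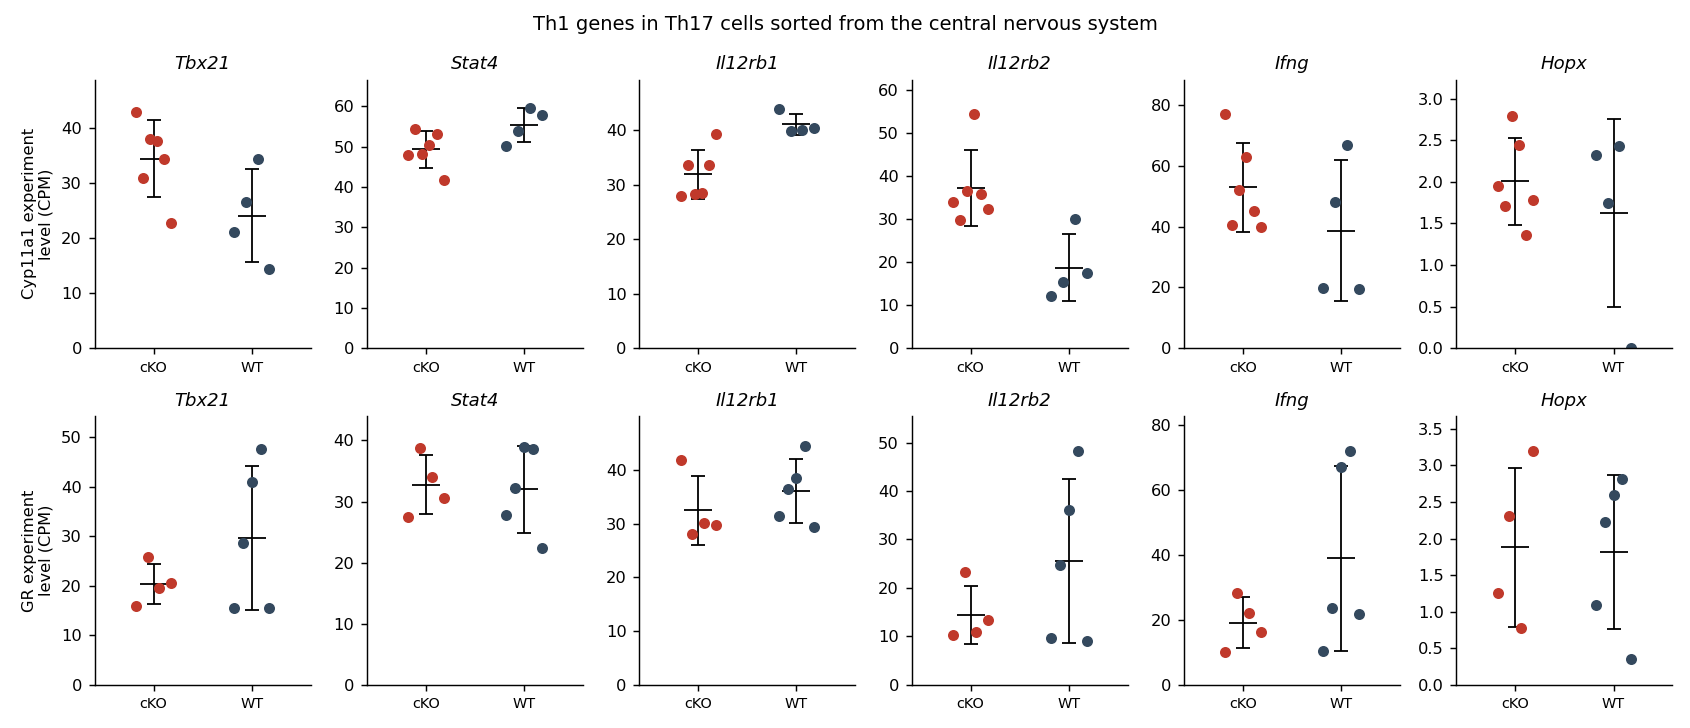
Levels in CPM of 6 Th1 genes in Th17 cells sorted from the CNS, in the Cyp11a1 experiment (upper row, cKO n = 6 and WT n = 4) and the GR experiment (lower row, cKO n = 4 and WT n = 5). Points are libraries, and the bar and whiskers are mean and SD. In the upper row Il12rb1 does not overlap between cKO (28.0 to 39.4) and WT (39.9 to 44.0), and in the lower row GR WT spreads widely in Tbx21, Ifng and Il12rb2.

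Loss of GR was compared in the same way. No member passed the test, of 6 tested, in a comparison in which 0% of 10597 genes were called by edgeR. At an unadjusted p under 0.05 there were 870 genes, DESeq2 called 3 and limma voom called 0. Tbx21, Ifng and Il12rb2 had lower means in GR cKO, but within the spread of the WT libraries, and the means of Il12rb1 and Stat4 differed by less than the SD of either group. The median log2 fold change was -0.35 over the 6 members and -0.0014 over all tested genes.

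Tbx21 was 15.97, 25.7, 19.5 and 20.5 CPM in GR cKO libraries, against 15.6, 28.6, 41.0, 47.6 and 15.4 CPM in GR WT libraries. Every cKO value lay inside the WT range, and WT replicates 3 and 4 stood above all others. The log2 fold change was -0.53 ± 0.33 (edgeR adjusted p = 0.612). Ifng was 10.02, 28.4, 22.2 and 16.2 CPM in cKO, against 10.3, 23.7, 67.2, 72.2 and 21.7 CPM in WT. The same pair of WT libraries was highest, and the log2 fold change was -0.996 ± 0.53 (edgeR adjusted p = 0.58).

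Il12rb2 repeated this pattern at 10.3, 23.3, 10.8 and 13.3 CPM in cKO, against 9.60, 24.7, 36.0, 48.4 and 9.11 CPM in WT (log2 fold change -0.81 ± 0.48, edgeR adjusted p = 0.602). Il12rb1 did not: it was 42.0, 28.0, 30.1 and 29.8 CPM in cKO, against 31.5, 36.5, 38.6, 44.5 and 29.5 CPM in WT, and its highest cKO library was replicate 1. Its log2 fold change was -0.16 ± 0.16 (edgeR adjusted p = 0.737). Stat4 was 27.6, 38.8, 34.0 and 30.6 CPM in cKO, against 27.7, 32.2, 39.0, 38.6 and 22.4 CPM in WT (log2 fold change 0.03 ± 0.18, edgeR adjusted p = 0.963). Hopx lay between 0.773 and 3.19 CPM in cKO and between 0.351 and 2.82 CPM in WT, and Eomes had 14 counts over the cKO and 13 counts over the WT libraries.

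The high WT libraries were also those with the fewest myeloid transcripts. Summed myeloid and microglia markers were 10210, 8720, 12910 and 12610 CPM in GR cKO, against 11460, 7877, 4889, 6236 and 12800 CPM in GR WT, with WT replicates 3 and 4 the lowest of the 9 libraries. All 20 tested genes of that marker list had a positive log2 fold change in GR cKO, and 0 were called. The summed NK and CD8 T cell markers were 132.8 and 144.6 CPM in WT replicates 3 and 4, within a range of 69.8 to 86.8 CPM in cKO and 58.4 to 144.6 CPM in WT. T cell markers were not highest in that pair. They summed to 17380 and 16980 CPM there, beside 18510 to 21240 CPM in cKO and 15950 to 21380 CPM over all WT libraries. With the myeloid sum as a covariate, the log2 fold change was 0.09 for Tbx21, -0.0054 for Ifng and 0.14 for Il12rb2. Without WT replicates 3 and 4, a choice made after seeing the data, it was 0.04 for Tbx21, 0.09 for Ifng and -0.0056 for Il12rb2. Since those libraries hold the highest values of these genes, leaving them out moves the means together by construction. Myeloid content and this pair of libraries cannot be told apart, and their part in the lower cKO means was not tested further.

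**Figure D3:**
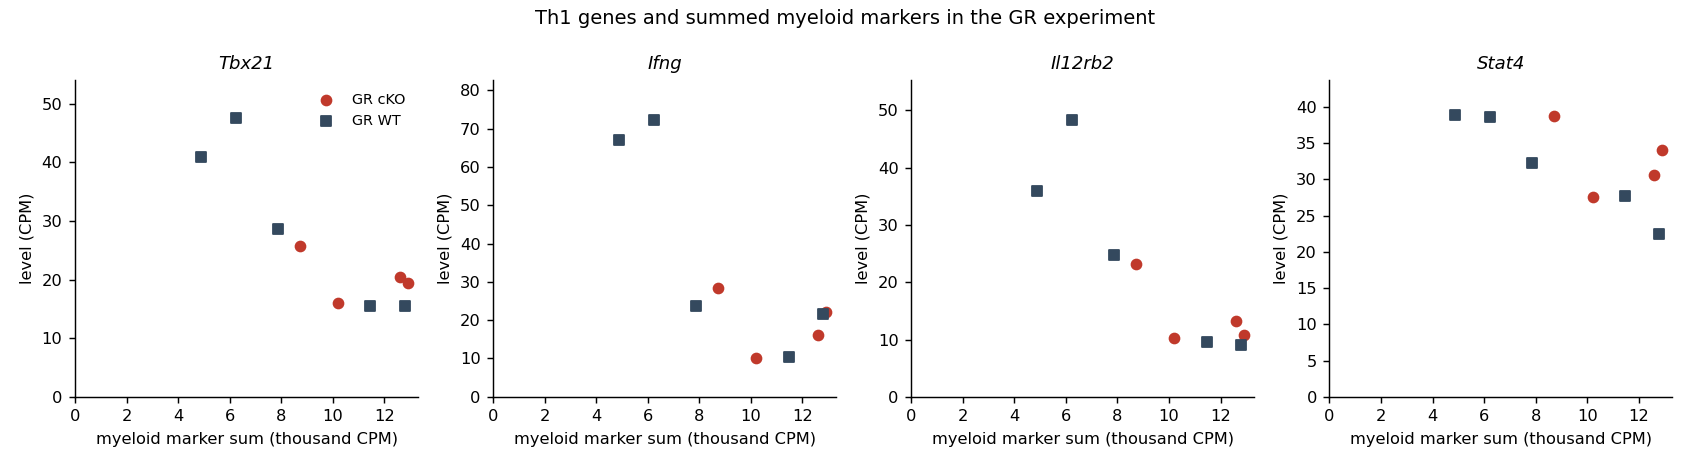
Level in CPM of Tbx21, Ifng, Il12rb2 and Stat4 (vertical axes) against the summed CPM of myeloid and microglia markers (horizontal axes) in the 9 libraries of the GR experiment. Circles are GR cKO and squares GR WT libraries. The WT libraries with myeloid sums of 4889 and 6236 CPM have the highest Tbx21, Ifng and Il12rb2.

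In the GR comparison 0 of 10 Th1 receptors and kinases, 0 of 8 transcription factors and cofactors, 0 of 13 effector and homing genes and 0 of 17 IFN-γ response genes passed the edgeR test. The median log2 fold change was 0.06 over the receptors and kinases, 0.15 over the transcription factors, -0.06 over the effector genes and -0.10 over the IFN-γ response genes.

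The culture gave the Th1 genes that passed a test. The question was how Dex and TGF-β1, alone and together, changed inflammatory Th17 cells in 2 days. All 5 pairwise comparisons came from 1 fit and share groups, so they are not independent of each other. With 3 libraries per group, some genes separate 2 groups by chance, and the share of all genes that do so was not counted. Eomes, with 0, 2, 0 and 3 counts over the libraries with TGF-β1 + Dex, Dex, TGF-β1 and control, and Hopx were too low to be tested. Of the 5 tested members, 0 were called lower with Dex, 1 with TGF-β1 and 2 with TGF-β1 + Dex against control, and 0 were called higher in any of these. These counts are from the fit without a replicate block. A fit with that block called more members with Dex and with TGF-β1 + Dex, as given in the last paragraph. Among all 10332 tested genes, Dex called 1.83% (0.919% higher and 0.91% lower), TGF-β1 called 3.29% (1.93% higher and 1.36% lower) and TGF-β1 + Dex called 6.25% (3.12% higher and 3.14% lower). The median log2 fold change of the members was -0.23 with Dex, -0.48 with TGF-β1 and -0.66 with TGF-β1 + Dex, beside 0.0026, -0.00028 and 0.0011 over all tested genes.

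Il12rb2 was lower in the presence of TGF-β1. Its level was 94.9, 142 and 113 CPM with TGF-β1 + Dex, 153, 200 and 156 CPM with Dex, 74.0, 118 and 91.1 CPM with TGF-β1, and 151, 195 and 161 CPM in control. All 6 libraries with TGF-β1 lay below all 6 without it. TGF-β1 against control gave a log2 fold change of -0.83 ± 0.18 (edgeR adjusted p = 0.0246). The call was lost without control replicate 2 or 3 or TGF-β1 replicate 1 or 3, with adjusted p of 0.109, 0.0643, 0.101 and 0.0956, and without the low-count filter, with 0.143. TGF-β1 + Dex against control gave -0.54 ± 0.18 (edgeR adjusted p = 0.11) and against Dex -0.54 ± 0.18 (adjusted p = 0.171). Replicate 1 was the lowest and replicate 2 the highest library of every group, and these fits had no replicate block. With that block more members were called in both of these comparisons, as given in the last paragraph. Dex against control gave 0.01, with an interval of -0.34 to 0.35. Serbp1 averaged 224 ± 12.7 CPM with TGF-β1 + Dex, 251 ± 2.62 CPM with Dex, 234 ± 23.7 CPM with TGF-β1 and 258 ± 7.45 CPM in control. Its log2 fold change with TGF-β1 against control was -0.14 (adjusted p = 0.371).

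Stat4 fell with the combination. Its level was 21.1, 25.2 and 24.0 CPM with TGF-β1 + Dex, 31.8, 27.4 and 36.4 CPM with Dex, 25.3, 28.9 and 25.4 CPM with TGF-β1, and 33.9, 37.1 and 40.2 CPM in control. The combination lay below each of the other groups without overlap, but its replicate 2 (25.18 CPM) was nearly level with TGF-β1 replicate 1 (25.31 CPM). Against control the log2 fold change was -0.66 ± 0.13 (edgeR adjusted p = 0.00773), and TGF-β1 alone gave -0.48 ± 0.13 (adjusted p = 0.0671) and Dex alone -0.23 ± 0.13 (adjusted p = 0.479). This call held in all 12 fits that left out 1 library. The combination against Dex gave -0.44 ± 0.13 (adjusted p = 0.126), and against TGF-β1 -0.18 ± 0.13 (adjusted p = 0.766).

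Il12rb1 changed less in size but with a small spread. It was 99.0, 106 and 110 CPM with TGF-β1 + Dex, 121, 133 and 128 CPM with Dex, 123, 127 and 127 CPM with TGF-β1, and 131, 130 and 137 CPM in control. The combination was below all other libraries. Against control it fell by 0.33 on the log2 scale (SE 0.07, edgeR adjusted p = 0.00801), and this call also held in all 12 fits that left out 1 library. Dex alone gave -0.06 and TGF-β1 alone -0.07 (adjusted p of 0.789 and 0.662). Against Dex it fell by 0.28 (SE 0.07, adjusted p = 0.0458), in a comparison that called 1.46% of genes higher and 1.16% lower. That call was lost when any 1 of the 12 libraries was left out and by DESeq2 (adjusted p = 0.132). Against TGF-β1 the change was -0.26 ± 0.07 (adjusted p = 0.132), in a comparison that called 0 of 5 members and 0.532% of all genes.

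Tbx21 was lower with Dex in each pair of means, but its libraries spread widely. It was 3.74, 15.7 and 6.32 CPM with TGF-β1 + Dex, 4.63, 10.7 and 7.15 CPM with Dex, 7.56, 24.3 and 14.2 CPM with TGF-β1, and 12.6, 22.9 and 16.8 CPM in control. Replicate 2 was the highest library of every group. Dex and control did not overlap, with a log2 fold change of -1.21 ± 0.50 (edgeR adjusted p = 0.311), and the combination against control gave -1.07 ± 0.49 (adjusted p = 0.269). The result for Dex depended on the model: with replicate number as a block, Tbx21 was called lower with Dex, as given in the last paragraph. TGF-β1 alone gave -0.17 ± 0.46 (adjusted p = 0.92), whose sign turned without control replicate 2 or TGF-β1 replicate 1.

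Ifng was close to absent under Dex. With TGF-β1 + Dex the 3 libraries held 0, 1 and 0 counts, with Dex 0, 0 and 0, with TGF-β1 0, 15 and 14, and in control 31, 5 and 9. Dex and control did not overlap: against a floor of 3 counts per library (a mean of 0.907 CPM), the control mean of 4.80 CPM puts Ifng at least 5.29-fold lower with Dex. That mean rests on control replicate 1, and without it the control mean is 1.78 CPM and the bound 1.958-fold. The edgeR adjusted p was 0.114 for Dex and 0.0844 for TGF-β1 + Dex against control. One TGF-β1 library at 0 overlapped the combination, and TGF-β1 against control gave a log2 fold change of -0.62 (adjusted p = 0.82), which turned to 0.72 without control replicate 1.

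Hopx, untested for its low counts, was 0.680, 0.700 and 0.421 CPM with TGF-β1 + Dex, 0.926, 1.37 and 0 CPM with Dex, 1.51, 2.02 and 2.72 CPM with TGF-β1, and 1.75, 0.545 and 0.487 CPM in control. The TGF-β1 libraries were above those with TGF-β1 + Dex and with Dex, and each value rests on 9 counts or fewer.

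**Figure D4:**
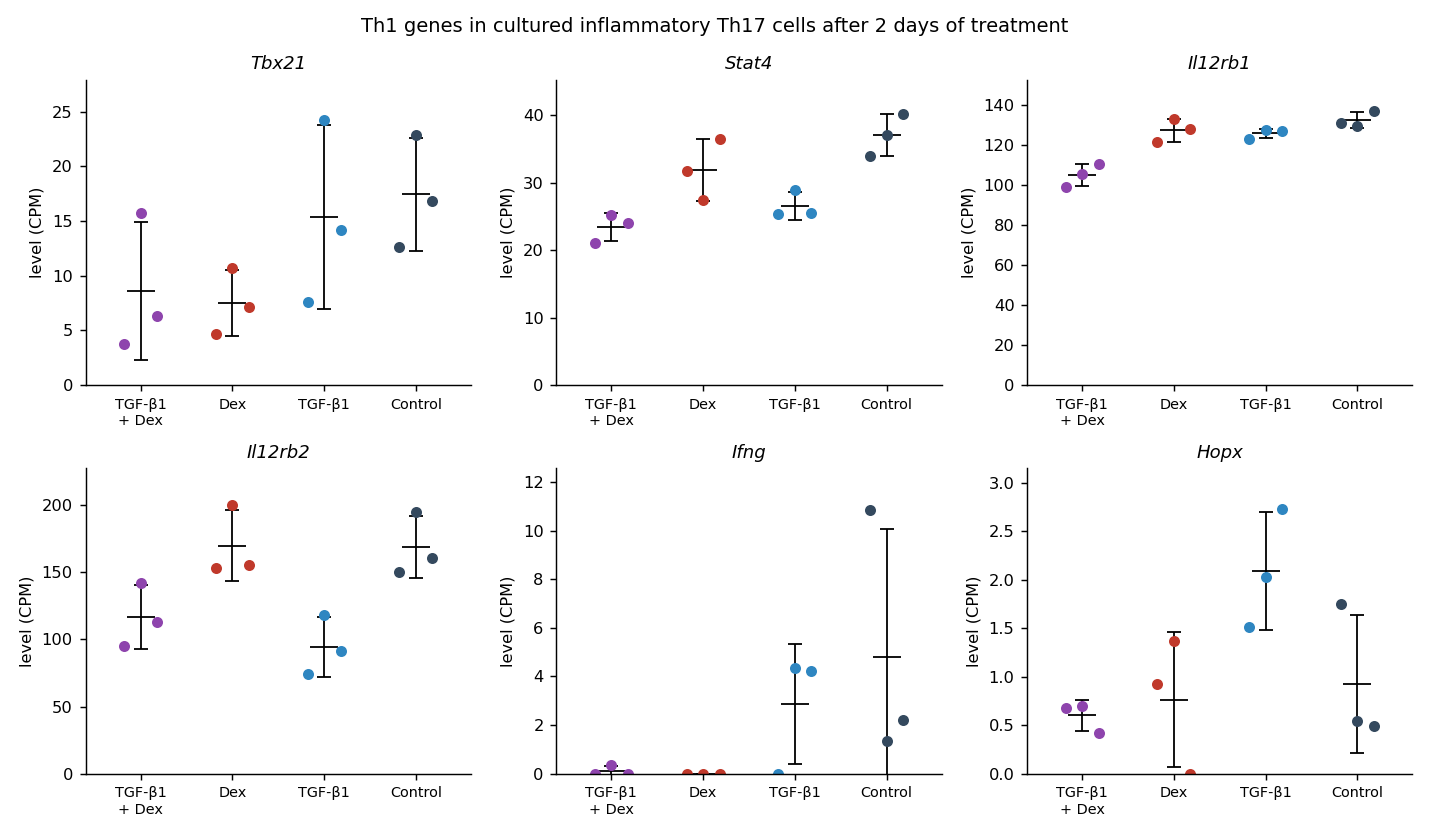
Levels in CPM of 6 Th1 genes in cultured inflammatory Th17 cells with TGF-β1 + Dex, Dex, TGF-β1 or control (n = 3 each). Points are libraries, and the bar and whiskers are mean and SD (whiskers end at 0 where the SD exceeds the mean). The 6 libraries with TGF-β1 lie lowest in Il12rb2 (74.0 to 142 CPM), and the libraries with Dex hold at most 1 Ifng count.

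**Figure D5:**
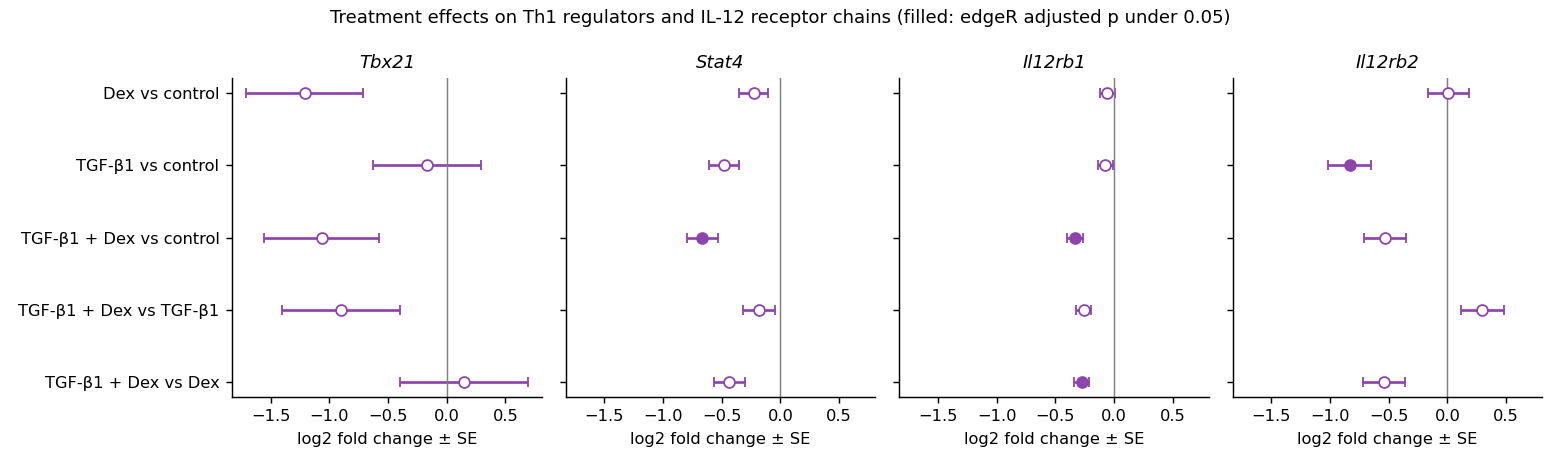
Log2 fold change with SE of Tbx21, Stat4, Il12rb1 and Il12rb2 in the 5 pairwise comparisons of the culture. Filled points have an edgeR adjusted p under 0.05: Il12rb2 with TGF-β1 against control, Stat4 and Il12rb1 with TGF-β1 + Dex against control, and Il12rb1 with TGF-β1 + Dex against Dex.

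Whether the agents act differently together was asked by the interaction term, which called 0% of the 10332 genes by edgeR, with 552 at an unadjusted p under 0.05 and 6 called by DESeq2. For Il12rb1 it was -0.20 ± 0.09 (unadjusted p = 0.0487, adjusted p = 0.909), for Il12rb2 0.29 ± 0.26 (interval -0.21 to 0.79), for Stat4 0.05 ± 0.19 (interval -0.32 to 0.41) and for Tbx21 0.31 ± 0.71. The fit could not show that the combination differs from the sum of its parts for any member.

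The effect of each agent averaged over the presence and absence of the other was added after seeing the data. Averaged over Dex, TGF-β1 called 3 members lower, where 6.87% of all genes were called, 3.69% higher and 3.18% lower: Il12rb2 at -0.69 ± 0.13 (edgeR adjusted p = 0.0053), Stat4 at -0.46 ± 0.09 (adjusted p = 0.00823) and Il12rb1 at -0.18 ± 0.05 (adjusted p = 0.0385). Averaged over TGF-β1, Dex called Ifng lower (adjusted p = 0.0362), where 3.27% of all genes were called and 1.73% were called lower. It gave -1.06 ± 0.35 for Tbx21 (adjusted p = 0.15) and 0.15 ± 0.13 for Il12rb2 (adjusted p = 0.636). The Ifng call was lost in 10 of the 12 fits that left out 1 library, with adjusted p up to 0.0835. The Il12rb1 call was lost in 10 of these 12 fits as well, with adjusted p up to 0.1, and by DESeq2 (adjusted p = 0.127). The Il12rb2 and Stat4 calls were kept in every fit with 1 library left out.

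The rest of the pathway moved in both directions. Among Th1 receptors and kinases, Il18r1, the receptor chain for IL-18, rose with TGF-β1 by 2.51 ± 0.29 on the log2 scale (edgeR adjusted p = 0.000377) and with TGF-β1 + Dex by 2.09 ± 0.30 (adjusted p = 0.000916), to 10.8 ± 1.84 CPM with TGF-β1 + Dex and 14.8 ± 5.31 CPM with TGF-β1, against 2.55 ± 0.33 CPM in control. Ifngr2, the signalling chain of the IFN-γ receptor, rose with TGF-β1 + Dex by 0.80 ± 0.19 (adjusted p = 0.0269). These were 1 and 2 of 9 tested genes of that list, where 1.93% and 3.12% of all genes rose, and 0 fell. Of the IL-12 family ligands, Il23a, the p19 subunit of IL-23, rose with TGF-β1 + Dex by 2.15 ± 0.35 (adjusted p = 0.00228), as 1 of 2 tested.

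Effector genes split. Gzmb, the cytotoxic granzyme B, averaged 100 ± 28.4 CPM with TGF-β1 + Dex, 314 ± 68.4 CPM with Dex, 216 ± 81.3 CPM with TGF-β1 and 655 ± 59.8 CPM in control. Gzmb fell with TGF-β1 (log2 fold change -1.59 ± 0.26, edgeR adjusted p = 0.00609) and with TGF-β1 + Dex (-2.71 ± 0.27, adjusted p = 0.000154) against control. With TGF-β1 + Dex the granule protein gene Nkg7 also fell, by 1.54 ± 0.26, as did Fasl, the death ligand, by 1.22 ± 0.28 (adjusted p of 0.00379 and 0.0217). Lta, the gene of lymphotoxin α, averaged 440 ± 25.1 CPM with TGF-β1 + Dex, 174 ± 3.33 CPM with Dex, 648 ± 24.3 CPM with TGF-β1 and 225 ± 8.26 CPM in control. Lta rose with TGF-β1 by 1.53 ± 0.06 (adjusted p = 1.38e-08) and fell with Dex by 0.37 ± 0.06 (adjusted p = 0.00547). Tnf, which encodes tumour necrosis factor, fell with Dex by 0.90 ± 0.18 (adjusted p = 0.0228). Of 10 tested effector and homing genes, 0 rose and 2 fell with Dex, where 0.919% of all genes rose and 0.91% fell. With TGF-β1, 1 rose and 1 fell, where 1.93% of all genes rose and 1.36% fell. With TGF-β1 + Dex, 1 rose and 3 fell, where 3.12% of all genes rose and 3.14% fell.

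Genes downstream of IFN-γ and the other partner factors of T-bet were mostly not called. Gbp4, a guanylate-binding protein gene, fell with TGF-β1 + Dex by 1.22 ± 0.30 (edgeR adjusted p = 0.0316), as 1 of 14 tested IFN-γ response genes. None of 7 tested Th1 transcription factors and cofactors was called with TGF-β1 + Dex against control. Of the 6 tested regulators of other helper fates, 3 were called higher and 2 lower with TGF-β1 + Dex, where 3.12% of all genes were called higher and 3.14% lower. Gata3, the Th2 regulator, fell by 1.97 ± 0.24 (adjusted p = 0.000264) and the AP-1 factor gene Batf by 0.99 ± 0.10 (adjusted p = 6.59e-05). Maf, which encodes the c-Maf factor, rose by 1.68 ± 0.31 (adjusted p = 0.00555) and Rora, the gene of RORα, by 0.82 ± 0.14 (adjusted p = 0.00306).

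In culture, NK and CD8 T cell markers summed to 22.5 to 35.0 CPM with TGF-β1 + Dex, 25.3 to 31.7 CPM with Dex, 13.2 to 16.3 CPM with TGF-β1 and 24.8 to 25.9 CPM in control, and myeloid markers to between 89.6 and 134 CPM over all libraries. Neural and glial markers summed to 239 to 276 CPM with TGF-β1 + Dex, 228 to 244 CPM with Dex, 237 to 262 CPM with TGF-β1 and 239 to 257 CPM in control. Of the control sum, Aldoc, a glycolytic aldolase gene, made up 226 CPM, and Gfap, Mog and Snap25 were at 0 in every control library. B and plasma cell markers summed to between 24.1 and 40.3 CPM over all culture libraries. T cell markers summed to 3178 to 3240 CPM with TGF-β1 + Dex, 3132 to 3247 CPM with Dex, 3330 to 3434 CPM with TGF-β1 and 3318 to 3455 CPM in control.

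Genes with the profile most like each member over the 12 culture libraries were ranked by the root-mean-square difference of centred log2 CPM, as a description. For Tbx21 they were Tgtp1 (0.448), Tgtp2 (0.449) and Irgm1 (0.493), all IFN-inducible GTPase genes, of which Tgtp1 and Tgtp2 are near-identical copies whose reads may be split between them. For Il12rb2 they were Auh (0.194), Ms4a6b (0.195) and Tbc1d10a (0.203). For Stat4 they were Sfxn1 (0.115), Rassf5 (0.12) and Lgals9 (0.134), and for Il12rb1 Ghitm (0.0721), Ddx47 (0.0746) and Cct7 (0.0803). The nearest to Ifng was Pdlim4, at a wider difference of 0.726.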

How the data were processed

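Messenger RNA of 2000 sorted Th17 cells per library was sequenced after a modified SMART-Seq2 and Nextera XT preparation, per the labels' protocols. The authors deposited 3 tables of whole-number counts per gene symbol, not normalized. RSEM 1.3.3 and the build mm10 are named in the submitters' processing notes, and how the counts were rounded is not given in the sources used here.

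Each table was fitted alone with edgeR 4.0.16 in R 4.3.3: filterByExpr, TMM scaling, robust quasi-likelihood tests and a Benjamini-Hochberg adjusted p threshold of 0.05 over all tested genes. The 4 culture groups shared 1 fit. CPM are counts divided by the TMM-adjusted library size. Lack of overlap between groups was looked up for named genes only, without its share over all tested genes, and is a description. Intervals of a log2 fold change are 95% intervals (1.96 SE), and floors of 3 counts cover counting error only. The fits were tested on simulated counts. Alternatives were RLE scaling, no low-count filter, DESeq2 1.42.0, limma 3.58.1 voom with quality weights, a replicate block, no repeat-like genes (at least 0.2% of counts and a correlation of at least 0.95 with Gm10800), the compared groups alone, scaling by T cell markers, marker covariates, and each library left out. Averaged effects, the fit without a pair of GR WT libraries and marker scaling without receptor genes were added after seeing the data.

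The members and gene lists were chosen with earlier results of these data known. Named genes were the 7 members in every comparison, the targeted genes, up to 4 listed pathway genes per list among those past the threshold, and the 3 genes most like each tested member. Il17a, Serbp1 and the marker genes were named after their values were seen. Promoter windows came from RefSeq. The values of some listed genes are not reported here.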

Additional observations from a re-analysis of the deposited data

Results flagged for a closer look

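Of 28 groups of 4 to 6 libraries checked (7 members in the 4 groups of sorted cells), 3 held a library far from the rest of its group, where chance flags about 1 group in 20. Il12rb2 was 54.55 CPM (290 counts) in Cyp11a1 cKO replicate 4, the highest of its 6 libraries, with a gap to the next library of 0.73 of the group's range. Il12rb1 was 41.95 CPM (134 counts) in GR cKO replicate 1, with a gap of 0.849 of the range, and 54.6% of the counts of that library were of repeat-like genes. Il12rb1 was 44.01 CPM (208 counts) in Cyp11a1 WT replicate 1, with a gap of 0.842 of the range.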

How the results depend on the processing

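Of 386 member values under alternatives other than leaving out a library, 351 kept direction and side of the threshold, and of 590 values with 1 library left out, 524 did. The cause of a change was not tested. With 18 genes called for Cyp11a1, the count was 33 without the low-count filter, 63 by DESeq2 (1 member), 6 by voom, 4 with the NK and CD8 T covariate and 3 with the myeloid covariate. For GR it was 3 by DESeq2 and 1 without WT replicates 3 and 4. For TGF-β1 + Dex against TGF-β1 (55 genes) it was 94 by DESeq2 and 22 with the groups alone, and for the interaction (0 genes) 4 without the filter and 6 by DESeq2. Members called became 0 without the filter for TGF-β1 against control, 4 by DESeq2 for TGF-β1 + Dex against control, 0 without the filter, by DESeq2, by voom and with the groups alone for TGF-β1 + Dex against Dex, and 0 without the filter and by voom for the averaged Dex effect.

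With 1 library left out, called genes ranged from 9 to 22 for Cyp11a1 (members 0 to 1), 0 to 1 for GR, 78 to 180 for Dex, 219 to 326 for TGF-β1 (members 0 to 1), and 425 to 641 for TGF-β1 + Dex against control (members 2 to 3). They ranged from 24 to 57 against TGF-β1, 152 to 266 against Dex (members 0 to 0), 0 to 1 for the interaction, 216 to 287 for the averaged Dex effect (members 0 to 1) and 547 to 607 for the averaged TGF-β1 effect (members 2 to 3). Signs turned, with log2 fold changes from -0.10 to 0.49 for Hopx with Cyp11a1, -0.061 to 0.11 for Stat4 and -0.33 to 0.29 for Hopx with GR, -0.13 to 0.13 for Il12rb2 with Dex, -0.66 to 0.14 for Tbx21 and -1.09 to 0.72 for Ifng with TGF-β1, and -0.53 to 0.52 for Tbx21 against Dex. They also did for the interaction of Tbx21 (-0.37 to 0.82) and Stat4 (-0.050 to 0.15) and the averaged TGF-β1 effect on Tbx21 (-0.35 to 0.17) and Ifng (-0.32 to 1.29).

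Other reversals were Ifng with Cyp11a1 at -0.048 with the NK and CD8 T covariate, and in the GR comparison Tbx21 (0.033 with the NK and CD8 T and 0.089 with the myeloid covariate, 0.0385 without WT replicates 3 and 4), Ifng (0.094 without them) and Il12rb2 (0.088 with the NK and CD8 T and 0.14 with the myeloid covariate). GR Stat4 turned to -0.019 by voom, -0.070 with T marker scaling and -0.031 with that scaling without Trac and Trbc2. GR Hopx turned to -0.0065 by RLE, -0.25 by voom, -0.089 with T marker scaling and -0.045 without Trac and Trbc2. The averaged TGF-β1 effect on Tbx21 was 0.0044 by DESeq2.

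Replicate numbers were not taken to pair libraries: the correlations of same-numbered libraries ran from -0.139 to -0.0425 (Cyp11a1), -0.238 to 0.125 (GR) and -0.0188 to 0.0732 (culture), though each of the 12 culture libraries correlated best with its own number. With a replicate block, 1 gene was called for Cyp11a1, 0 for GR, 211 for Dex (1 member, Tbx21 at -1.25, edgeR adjusted p = 0.0178) and 2 for the interaction. That fit called 4 members for TGF-β1 + Dex against control and 2 against Dex. The share of all genes that it called in those comparisons is not given here, so these member counts cannot be set against it. With the block, GR Stat4 was -0.066 and GR Hopx -0.29. Low counts of Ifng, Hopx and Eomes in culture limit what these libraries can show.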
